A study of Mus musculus with 5 samples.

Results

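The killer cell lectin-like receptor genes are described here in libraries labelled as CRC tumours of mice kept at 30 °C or 4 °C. The members are all entries of the deposited count table whose symbol begins with Klr followed by a, b, c, d, e, g, i or k and a digit, which gave 30 of 54113 named entries. They comprise 14 Klra genes (the Ly49 family), 6 Klrb1 genes (NKR-P1), 3 Klrc genes and Klrd1 (NKG2 and CD94), Klrk1 (NKG2D), Klre1, Klri1 and Klri2, and Klrg1 and Klrg2. By the known role of the product, 14 are inhibitory, 9 activating, 2 partner chains, 4 pseudogenes and 1 has no role assigned here.

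The RNA is labelled as tumour tissue of the mouse colon adenocarcinoma line MC38 (a single line, written MC-38 in the methods) grown in C57BL/6 mice, whose immune system is intact. The control group was held at 30 °C for 2 weeks (n = 3 libraries, 30 °C replicates 1 to 3) and the cold group at 4 °C for 2 weeks (n = 2 libraries, 4 °C replicates 1 and 2). No other agent or allele is given for either group. The study's methods give an age of 5 to 10 weeks and both sexes for cold exposure in general, and the labels give neither for these mice.

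Natural killer (NK) cells are lymphocytes that kill tumour cells without a rearranged antigen receptor, and they weigh signals from inhibitory and activating receptors of this family. Inhibitory members carry an immunoreceptor tyrosine-based inhibition motif (ITIM) in the cytoplasmic tail, which recruits phosphatases such as SHP-1 when the receptor binds a ligand such as MHC class I. Activating members lack the motif and signal through adaptor proteins, chiefly DAP12, DAP10 and the Fc receptor γ chain. Several members are also found on T cells, and Ly49B and Ly49Q are known from myeloid cells and, for Ly49Q, from plasmacytoid dendritic cells.

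All members lie on chromosome 6 of GRCm38. Of the 30, 28 fall within 2.64 Mb of the NK gene complex (chr6:128609227-131247362), and 13 of the 14 Klra genes fill chr6:129831154-130386874, with Klra2 apart at chr6:131219223-131247362. Klrg1 (chr6:122270596-122282882) and Klrg2 (chr6:38625693-38637242) lie outside the complex. In the annotated coding sequences, an ITIM stood within the first 40 codons of 14 of 14 inhibitory members and of 0 of 9 activating members.

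The difference between the inhibitory and the activating Klra receptors can be seen in a single codon of their tails. The stretches below are 30 coding bases near the start of the reading frame on the minus strand of chromosome 6, from the GENCODE M21 transcripts, all within a single coding exon. Capitals mark the codon aligned with the ITIM tyrosine codon of Klra7, which is codon 8 of that gene counted from the start codon.
Klra7 (Ly49G, inhibitory, chr6:130231579-130231608): caggaggtcactTACtcaactgtgagattt
Klra3 (Ly49C, inhibitory, chr6:130335761-130335790): ccagaggtcactTACtcaactgtgagactt
Klra1 (Ly49A, inhibitory, chr6:130380624-130380653): caggaggtcactTATtcaatggtgagattt
Klra2 (Ly49B, inhibitory, chr6:131245288-131245317): caggaggtcactTACacaactctgagattt
Klra17 (Ly49Q, inhibitory, chr6:129874869-129874898): caggaggtcactTATtcaactgtgagattt
Klra4 (Ly49D, activating, chr6:130065264-130065293): caggaagacactTTCtcagctgtgagattc
Klra8 (Ly49H, activating, chr6:130128122-130128151): caggaggtcactTTCccaactatgagattc
The inhibitory genes carry a tyrosine codon (TAC or TAT) at this place and the 2 activating genes carry the phenylalanine codon TTC.

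The libraries held 16191708 to 20320525 counts on named genes, and the members took 1375 to 3807 of them. Levels are given as CPM (counts scaled to 1000000 per library) after scaling by the trimmed mean of M values (TMM), unless a sentence says otherwise. Pancreatic acinar transcripts stood apart in 30 °C replicate 2, where a list of 36 genes summed to 426101 TMM-scaled CPM, against 2953 in 4 °C replicate 2 and 22.5 to 86.2 in the other 3 libraries. The 10 epithelial genes summed to 19.0 to 173 and the 10 genes of splenic stroma and red pulp to 965 to 1201 across the libraries, with Krt19 and Cldn4, both epithelial, at 0 counts in 2 libraries each. Spleen markers thus summed higher than epithelial markers in every library, though the lists hold different genes and the sums are not scaled by length. The labels name tumour tissue, and the Klr levels are those of the whole tissue sampled. The part of tissue other than tumour in the Klr levels was not tested. In bulk RNA, fewer cells of a type and less RNA per cell cannot be told apart.

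Across the family the libraries at 4 °C lay inside the range of those at 30 °C. Summed over the 30 members, the level was 80.1, 113 and 166 in 30 °C replicates 1, 2 and 3, and 129 and 133 in 4 °C replicates 1 and 2. Control libraries averaged 120 ± 43.4 (SD, n = 3), and cold libraries averaged 131 ± 3.03 (SD, n = 2). The lowest and the highest library were both control libraries, and they differed 2.07-fold. Which control was lowest depended on the scaling, as 30 °C replicate 2 had a TMM factor of 0.738. In CPM without TMM, 30 °C replicate 2 was at 83.2 and replicate 1 at 86.1. With acinar genes taken out of the library total, they were at 121 and 86.1.

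The quasi-likelihood test of edgeR was run on 16133 genes with enough counts, 24 of the members among them. No Klr gene passed an adjusted p of 0.05, and 0 of 24 had an unadjusted p under 0.05. The Wald test of DESeq2 gave 0 of 24 at an unadjusted p under 0.05, and 0 of the 7 members for which it returned an adjusted p passed; the other 17 had none. Over all 16133 genes, 0% passed the adjusted threshold with edgeR and 6.76% had an unadjusted p under 0.05 (2.58% with higher and 4.17% with lower values at 4 °C). DESeq2 called 1.01% of the genes for which it gave an adjusted p. The smallest adjusted p of a member was 0.782, that of Klrb1b. Of the 24, 14 had a positive and 10 a negative log2 fold change (4 °C minus 30 °C), beside 50.7% positive over all genes. The median was 0.07, beside 0.0064 over all genes, and single values ran from -0.42 to 0.77.

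**Figure D1:**
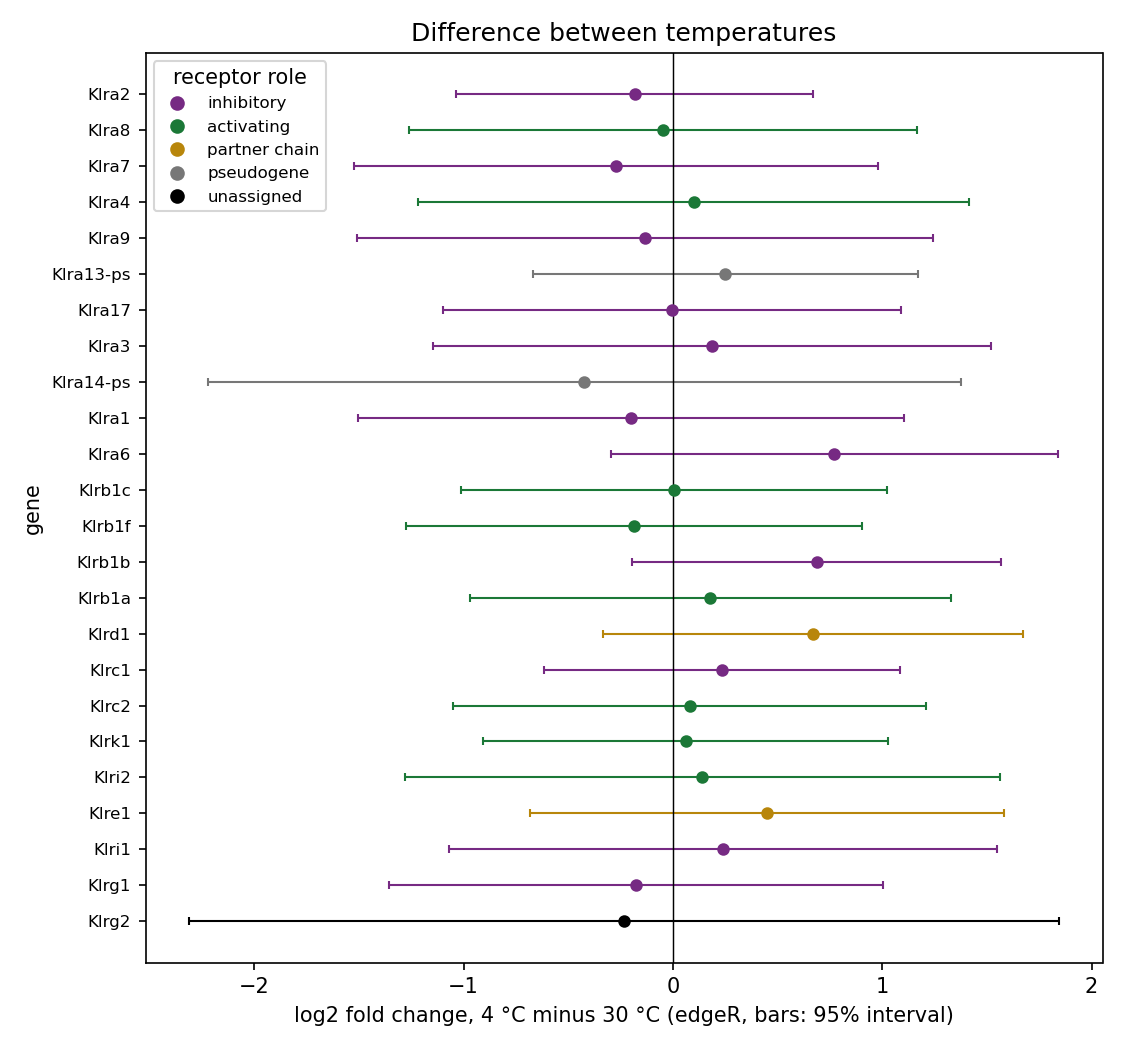
Log2 fold change of each tested Klr gene, 4 °C minus 30 °C (horizontal axis), with its 95% interval from edgeR and the point coloured by receptor role. Every interval includes 0, and the estimates run from -0.42 for Klra14-ps to 0.77 for Klra6.

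The order of the libraries was alike for most genes. Among the 24, 30 °C replicate 1 was lowest for 20 genes and 30 °C replicate 3 highest for 15. The direction of the family median rested on single control libraries. Without 30 °C replicate 1 the median was -0.19, with 8 positive genes, and without 30 °C replicate 3 it was 0.44, with 20 positive genes. Without 30 °C replicate 2, the library rich in acinar transcripts, it was 0.06, with 14 positive genes.

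**Figure D2:**
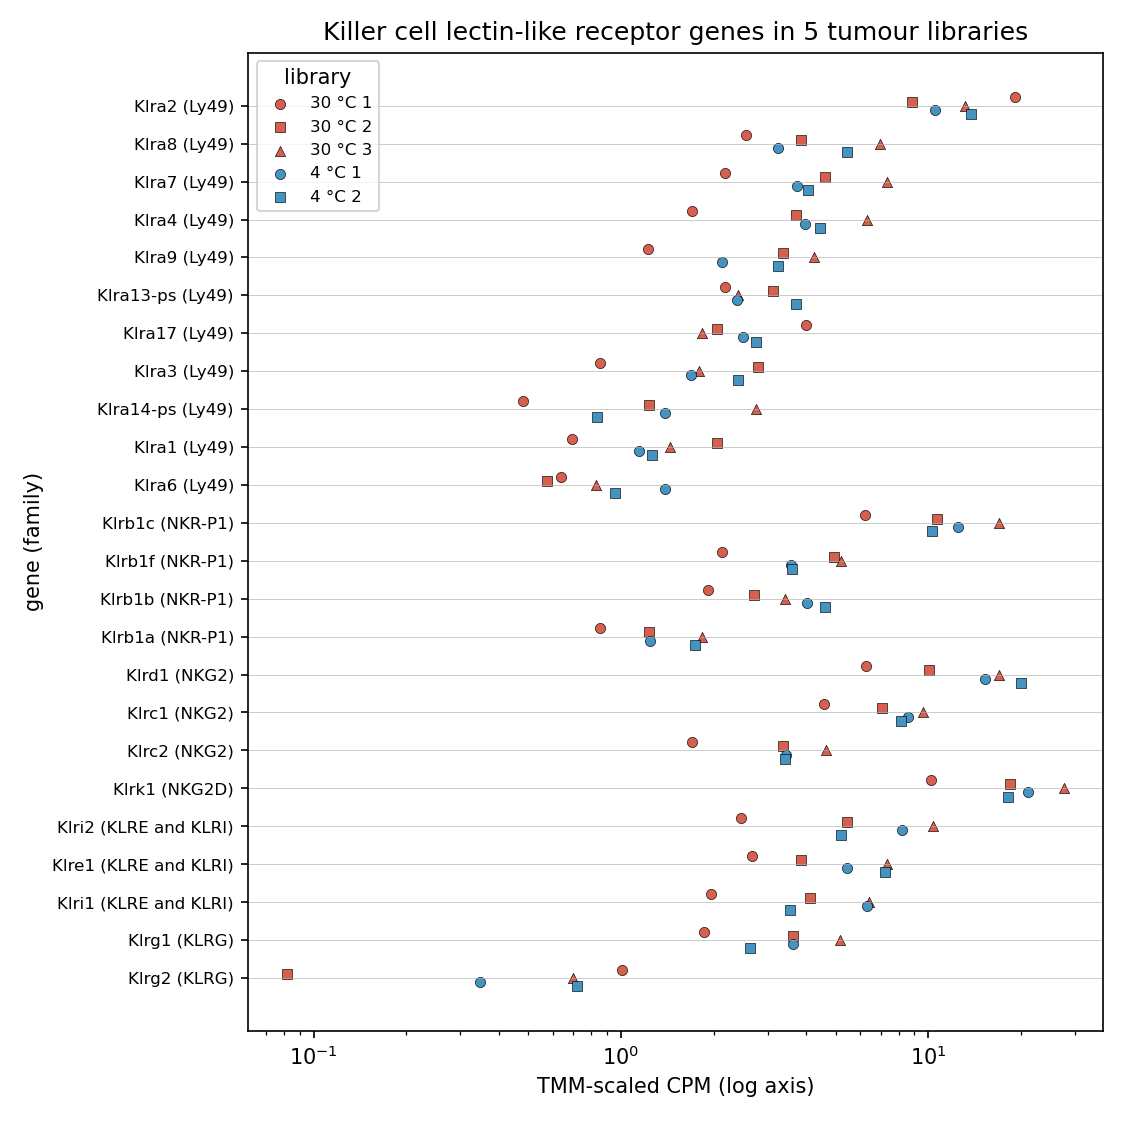
TMM-scaled CPM (log axis) of the 24 tested Klr genes in each of the 5 libraries, grouped by family; red marks 30 °C, blue 4 °C and the symbol the replicate. For most genes the 30 °C points lie on both sides of the 4 °C points, with 30 °C replicate 1 lowest for 20 genes.

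Among the Ly49 receptors, many of the inhibitory members bind classical MHC class I. Klra7 (Ly49G) was at 2.18, 4.60 and 7.34 at 30 °C and at 3.73 and 4.07 at 4 °C. Its log2 fold change was -0.27 ± 0.52 (SE, 95% interval -1.53 to 0.98, adjusted p = 0.934). Both cold libraries lay between the first and second control libraries.

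Klra9 (Ly49I, another class I receptor) stood at 1.22, 3.37 and 4.24 at 30 °C and at 2.14 and 3.24 at 4 °C. Klra3 (Ly49C) had 0.852, 2.79 and 1.79 against 1.69 and 2.40. Klra1 (Ly49A) had 0.692, 2.05 and 1.44 against 1.14 and 1.26. In all 3 genes the groups overlapped and 30 °C replicate 1 was the lowest library. Their log2 fold changes were -0.13 for Klra9, 0.19 for Klra3 and -0.20 for Klra1, with SE of 0.57, 0.55 and 0.54.

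The activating Ly49 receptors pair with DAP12, and Ly49H is the receptor for a cytomegalovirus protein. Klra8 (Ly49H) was at 2.55, 3.86 and 6.99 at 30 °C and at 3.23 and 5.45 at 4 °C. Klra4 (Ly49D) was at 1.70, 3.70 and 6.33 at 30 °C and at 3.98 and 4.43 at 4 °C. The cold libraries fell within the control range for both, and the log2 fold changes were -0.05 ± 0.50 for Klra8 and 0.10 ± 0.55 for Klra4 (SE). Among the counts of Ly49 receptors without Klra2 and Klra17, the pair Klra4 and Klra8 took 42.3%, 35.5% and 45.8% at 30 °C and 41.2% and 44.8% at 4 °C. With Klra2 and Klra17 included, it took 12.8%, 23.5% and 30.2% at 30 °C and 23.7% and 25.7% at 4 °C. Both shares overlapped between the groups, and the 95% Wilson intervals of the share without these 2 genes, which cover counting error only, lay between 29.9% and 49.9%.

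Klra2 and Klra17 departed from the order of the other Ly49 genes. Klra2 (Ly49B) was at 19.1, 8.87 and 13.1 at 30 °C and at 10.5 and 13.7 at 4 °C, so that 30 °C replicate 1 was its highest library. Klra17 (Ly49Q) was likewise highest there, with 3.99, 2.05 and 1.83 at 30 °C and 2.49 and 2.76 at 4 °C. Neither differed between the groups beyond the spread (log2 fold change -0.18 ± 0.35 for Klra2 and -0.0059 ± 0.45 for Klra17, SE).

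In shares, Klra2 took 23.8% of all Klr counts in 30 °C replicate 1 (95% Wilson interval 21.8% to 26.1%) and 7.85% to 10.3% in the other 4 libraries. Klra17 took 4.98% in that library (3.99% to 6.20%) and 1.10% to 2.07% in the others. The intervals of 30 °C replicate 1 did not meet those of any other library for either gene.

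**Figure D3:**
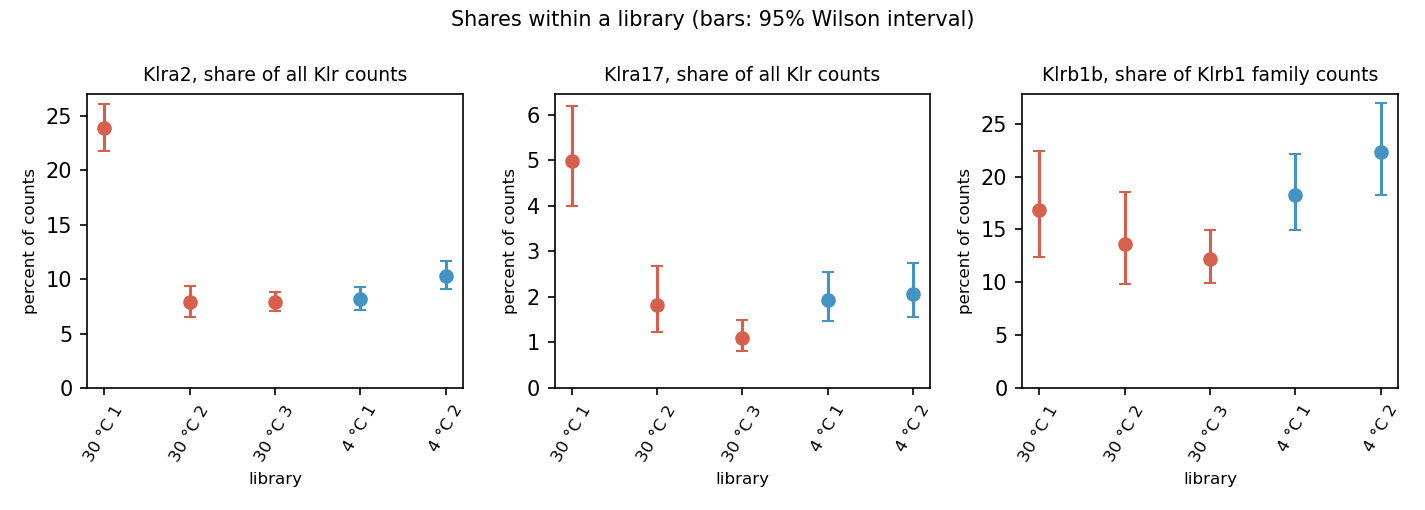
Share of Klr counts from Klra2 and from Klra17, and share of Klrb1 family counts from Klrb1b, in percent for each library, with 95% Wilson intervals (counting error only). 30 °C replicate 1 stands apart for Klra2 at 23.8% and Klra17 at 4.98%, and Klrb1b has its 2 highest shares, 18.3% and 22.3%, at 4 °C.

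A list of 10 myeloid markers, written after these values were seen, was also highest in 30 °C replicate 1. It summed to 10867, 7320 and 4254 at 30 °C and to 4140 and 5829 at 4 °C, led by S100a8, S100a9 and Lyz2. None of its 10 genes was at 0 in any library. The match in order was partial. The list summed higher in 30 °C replicate 2 than in replicate 3, whereas Klra2 was lower there (8.87 against 13.1). Klra17 was slightly higher there (2.05 against 1.83). The 6 markers of plasmacytoid dendritic cells summed to 218 to 257 at 30 °C and 252 to 254 at 4 °C, and Siglech, a receptor that defines these cells, was lowest in 30 °C replicate 1 at 6.71 and at 11.4 to 17.3 elsewhere. The part of myeloid cells in the level of Klra2 and Klra17 was not tested. Without these 2 genes the remaining 28 members summed to 57.1, 102 and 151 at 30 °C and to 116 and 117 at 4 °C, a 2.65-fold range within the controls.

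Klra6 (Ly49F, inhibitory) was the only Ly49 gene among those tested whose groups did not overlap. It was at 0.639, 0.575 and 0.830 at 30 °C and at 1.39 and 0.959 at 4 °C, all close to 1 CPM. Its log2 fold change of 0.77 ± 0.44 (SE) had an interval of -0.30 to 1.84 and an adjusted p of 0.801. Over the family 2 of 24 tested genes did not overlap between the groups, both higher at 4 °C, beside 23.3% of all genes tested, 12.2% in that direction and 11% in the other.

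Transcripts of 2 Ly49 pseudogenes were counted at a mean above 1 CPM. Klra13-ps was at 2.18, 3.12 and 2.40 at 30 °C and at 2.39 and 3.71 at 4 °C. Klra14-ps was at 0.479, 1.23 and 2.75 at 30 °C and at 1.39 and 0.839 at 4 °C, and its 5.74-fold range within the controls was the widest of the members above 1 CPM. Klra14-ps shares 9.55% of its 100-base windows with Klra8, and 14.4% of the windows of Klra8 occur in Klra14-ps or Klra9, so reads could be split between them.

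Some NKR-P1 receptors bind C-type lectins of the Clec2 family encoded among them. Klrb1c (NKR-P1C, the NK1.1 antigen, activating) was at 6.23, 10.7 and 17.0 at 30 °C and at 12.5 and 10.2 at 4 °C. Klrb1f (NKR-P1F, activating) had 2.13, 4.93 and 5.20 against 3.58 and 3.59, and Klrb1a (NKR-P1A, activating) had 0.852, 1.23 and 1.83 against 1.24 and 1.74. The groups overlapped for these 3 activating genes, with log2 fold changes of 0.0049 ± 0.42 for Klrb1c, -0.18 ± 0.45 for Klrb1f and 0.18 ± 0.48 for Klrb1a (SE).

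Klrb1b, the inhibitory NKR-P1B, was the member with the smallest p. It was at 1.92, 2.71 and 3.41 at 30 °C and at 4.03 and 4.61 at 4 °C. Both cold libraries were above all controls, and the means were 2.68 ± 0.75 (SD, n = 3) and 4.32 ± 0.41 (SD, n = 2). Even so, the log2 fold change of 0.69 ± 0.37 (SE) had a 95% interval of -0.19 to 1.57 and an adjusted p of 0.782. Within the counts of the Klrb1 family, Klrb1b took 16.8%, 13.6% and 12.2% at 30 °C and 18.3% and 22.3% at 4 °C, and the Wilson intervals of 30 °C replicate 1 (12.4% to 22.4%) and 4 °C replicate 1 (15.0% to 22.2%) overlapped. Exons of Gm44511, on the same strand, cover 26.9% of the exon bases of Klrb1b and 13.9% of those of Klrb1c, and Gm44511 itself had 0 counts in all libraries.

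CD94 and the NKG2 chains form heterodimers that read the class Ib molecule Qa-1. Klrd1 (CD94, the shared partner chain) was at 6.28, 10.02 and 16.9 at 30 °C and at 15.3 and 20.1 at 4 °C. One control library lay between the 2 cold libraries, and the other 2 lay below both. The log2 fold change was 0.67 ± 0.42 (SE, 95% interval -0.33 to 1.67, adjusted p = 0.817).

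The chains that pair with CD94 gave estimates within their error of 0. Klrc1 (NKG2A, inhibitory) was at 4.58, 7.06 and 9.61 at 30 °C and at 8.55 and 8.15 at 4 °C, with a log2 fold change of 0.24 ± 0.35 (SE). Klrc2 (NKG2C, activating) was at 1.70, 3.37 and 4.63 at 30 °C and at 3.43 and 3.41 at 4 °C, with a log2 fold change of 0.08 ± 0.47 (SE). For both genes the cold libraries sat between control libraries. Inhibitory Klrc1 took 64.2% to 70.5% of the Klrc counts at 30 °C and 69.7% to 70.5% at 4 °C. Of the 100-base windows, 15.9% of Klrc1, 17.0% of Klrc2 and 20.9% of Klrc3 occur in another Klrc gene. Reads could therefore be split between these genes. Klrd1 took 7.84% to 10.2% of all Klr counts at 30 °C and 11.9% and 15.1% at 4 °C.

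Klrk1 encodes NKG2D, which recognizes stress ligands on tumour cells and pairs with DAP10. It was at 10.2, 18.4 and 27.6 at 30 °C and at 21.04 and 18.1 at 4 °C. Control libraries lay on both sides of the cold libraries, and the log2 fold change was 0.06 ± 0.40 (SE, 95% interval -0.90 to 1.03, adjusted p = 0.980).

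Klre1 encodes a partner chain that joins KLRI1 into an inhibitory and KLRI2 into an activating receptor. Klre1 was at 2.66, 3.86 and 7.34 at 30 °C and at 5.42 and 7.25 at 4 °C. Klri1 was at 1.97, 4.11 and 6.42 at 30 °C and at 6.32 and 3.53 at 4 °C, and Klri2 was at 2.45, 5.42 and 10.3 at 30 °C and at 8.21 and 5.21 at 4 °C. All 3 genes overlapped between the groups, and 30 °C replicate 3 was the highest library for each. Klri2 took 55.4% to 61.7% of the counts of the Klri pair at 30 °C and 56.5% and 59.6% at 4 °C, and these shares overlapped between the groups. The log2 fold changes were 0.45 ± 0.47 for Klre1, 0.24 ± 0.54 for Klri1 and 0.14 ± 0.59 for Klri2 (SE).

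Klrg1 encodes an inhibitory receptor of mature NK cells and effector T cells that binds cadherins. It was at 1.86, 3.61 and 5.15 at 30 °C and at 3.63 and 2.64 at 4 °C, with a log2 fold change of -0.18 ± 0.49 (SE). Klrg2 was tested but low, at 1.01, 0.0821 and 0.699 at 30 °C and at 0.348 and 0.719 at 4 °C. Neither gene separated the groups.

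The 6 members that did not pass the filter on low counts were Klrb1 (NKR-P1G, inhibitory), Klrc3 (NKG2E, activating), Klra5 (Ly49E) and Klra10 (Ly49J), both inhibitory, and the pseudogenes Klra11-ps and Klrb1-ps1. Klrb1 had 4 to 14 counts a library and Klrc3 2 to 9. The 3 genes Klra5, Klra10 and Klra11-ps had at most 4. Klrb1-ps1 had 0 counts in all 5 libraries, which allows up to 0.148 to 0.185 CPM depending on the library (3 counts, counting error only).

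Levels of different members can be compared only per length. Per kb of the coding transcript, the means over the 5 libraries were 15.0 ± 4.91 TMM-scaled CPM per kb for Klrk1, 14.9 ± 6.02 for Klrd1 and 11.5 ± 3.45 for Klra2 (SD, n = 5). These 3 neighbours in the order differed by less than their spread, and their order changed with the library. In 30 °C replicate 1 Klra2 led at 16.9, with Klrk1 at 8.05 and Klrd1 at 6.83, whereas Klrd1 led in 4 °C replicate 2 at 21.8. Klrb1c followed at 6.83 ± 2.36, then Klri1 at 5.33 ± 2.27 and Klre1 at 4.10 ± 1.59. With the length of all annotated exons in place of 1 transcript, Klrk1 moved from rank 1 to rank 9, at 2.65, and Klrd1 led at 10.7.

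Other genes of NK cells shared the order of the libraries in part. The 10 NK cell markers, none of them a Klr gene, summed to 183, 224 and 316 at 30 °C and to 264 and 249 at 4 °C, with the same control libraries lowest and highest in the sum. Gene by gene, 6 of the 10 were lowest in 30 °C replicate 1, 5 were highest in 30 °C replicate 3 and 4 in 4 °C replicate 1, and 3 (Ncr1, Prf1 and Gzma) had both the lowest and the highest library of the sum. Ncr1, the NKp46 receptor, was at 4.52, 7.39 and 13.1 against 8.45 and 7.31. Eomes, a transcription factor of NK cells, was at 5.16, 6.90 and 12.7 against 13.2 and 8.45, and Il2rb, a chain of the IL-2 and IL-15 receptors, was at 49.5, 62.0 and 95.4 against 97.8 and 78.7. Of the 10, 0 passed the adjusted threshold, and the median log2 fold change was 0.19. An unadjusted p under 0.05 was found for 1 in each direction, beside 2.58% higher and 4.17% lower over all genes. Those 2 were Cd160, a receptor of NK and T cells (0.78, adjusted p = 0.727), and Il18rap, a chain of the IL-18 receptor (-0.78, adjusted p = 0.689), and Itga2, an integrin of NK cells, was next (-0.50, adjusted p = 0.834).

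Set against the NK markers, the 28 Klr genes without Klra2 and Klra17 gave count ratios of 0.312, 0.455 and 0.479 at 30 °C and 0.438 and 0.468 at 4 °C. The lowest ratio was again in 30 °C replicate 1, and the groups overlapped.

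T cell markers shared the order of the control libraries in their sum, but both cold libraries stood above every control library. The 10 genes summed to 264, 301 and 418 at 30 °C and to 573 and 562 at 4 °C, and 8 of the 10 had groups that did not overlap, all higher at 4 °C, beside 12.2% of all genes tested. Cd3e was at 24.3, 24.4 and 32.1 against 48.4 and 51.8 (log2 fold change 0.89 ± 0.20 SE, adjusted p = 0.689). None of the 10 passed the adjusted threshold, and 7 had an unadjusted p under 0.05 with higher values at 4 °C, beside 2.58% of all genes, with a median log2 fold change of 0.83 and Cd3g (1.02) and Lat (0.76) among the smallest p. Cd8a (0.61) and Cd4 (0.64) were not under 0.05 unadjusted. The NK markers per T cell marker count were 0.693, 0.744 and 0.756 at 30 °C and 0.461 and 0.443 at 4 °C. For the 28 Klr genes, this ratio was 0.216, 0.338 and 0.362 at 30 °C and 0.202 and 0.207 at 4 °C. Klr transcripts per T cell transcript were thus lower in both cold libraries than in any control library, although 30 °C replicate 1 was close to them, and the ratio was not tested.

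**Figure D4:**
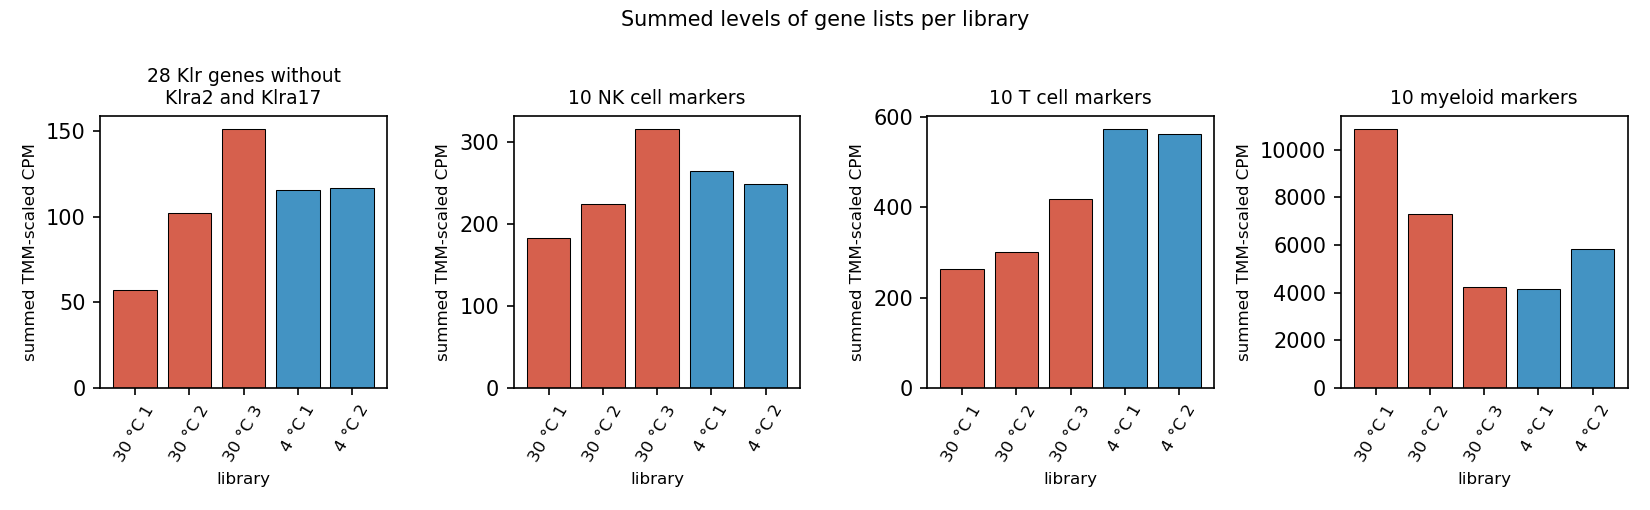
Summed TMM-scaled CPM per library (bars, from 0) of the 28 Klr genes without Klra2 and Klra17, 10 NK cell markers, 10 T cell markers and 10 myeloid markers; red is 30 °C and blue 4 °C. The Klr genes and the NK markers share their lowest and highest library, the T cell markers are highest in both 4 °C libraries at 573 and 562, and the myeloid markers are highest in 30 °C replicate 1 at 10867.

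Among the partners of the Klr receptors, Clec2d, which encodes Clr-b, the ligand of NKR-P1B, separated the groups as Klrb1b did. Of all genes tested, 12.2% likewise had both cold libraries above all controls. Clec2d was at 62.6, 66.3 and 70.4 at 30 °C and at 109 and 129 at 4 °C. Its log2 fold change was 0.84 ± 0.17 (SE), with an unadjusted p of 0.00203 and an adjusted p of 0.689 in the edgeR fit, so it did not pass over all genes. Clec2i, another lectin ligand, was at 14.05, 17.4 and 24.01 against 33.0 and 24.98 (0.65, adjusted p = 0.743), also without overlap. Clec2d lies within the NK gene complex, and its transcript is not limited to tumour cells.

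The ligands of the other receptors did not pass the test either. H2-K1, a class I ligand of Ly49 receptors, had a log2 fold change of 0.37 (adjusted p = 0.798), H2-D1 0.25 (0.845) and H2-T23, which encodes Qa-1, 0.23 (0.834). Ulbp1, the NKG2D ligand MULT1, was at 9.69, 13.0 and 17.2 against 14.5 and 10.1. Cdh1, the E-cadherin bound by KLRG1, was at 4.58, 33.1 and 3.54 against 2.09 and 3.18, highest in 30 °C replicate 2, the library rich in acinar transcripts. Both cold libraries lay below all controls for Cdh1, as they did for 11% of all genes tested. Of 20 ligand genes listed, 13 were tested, 0 passed, and the median log2 fold change was 0.23. Of the 13, 1 had an unadjusted p under 0.05, higher at 4 °C, beside 2.58% of all genes in that direction. The groups did not overlap for 4 with higher and 1 with lower values at 4 °C, beside 12.2% and 11% of all genes tested.

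Of the 4 adaptors, 2 had groups that did not overlap, both higher at 4 °C, beside 12.2% of all genes tested. Hcst, which encodes DAP10 of the NKG2D complex, was at 9.21, 12.8 and 11.96 at 30 °C and at 16.4 and 21.7 at 4 °C (log2 fold change 0.75 ± 0.25 SE, adjusted p = 0.692). Cd247, the CD3ζ chain used by NK and T cells, was at 21.4, 23.4 and 27.99 against 48.4 and 42.1 (0.90 ± 0.19 SE, adjusted p = 0.689). Tyrobp, which encodes DAP12, was at 211, 160 and 155 against 150 and 241, and Fcer1g at 278, 122 and 112 against 96.7 and 184, both with overlap. Hcst and Cd247 were higher in both cold libraries than in any control library, as the sum of the T cell markers was, and the part of T cells in them was not tested.

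**Figure D5:**
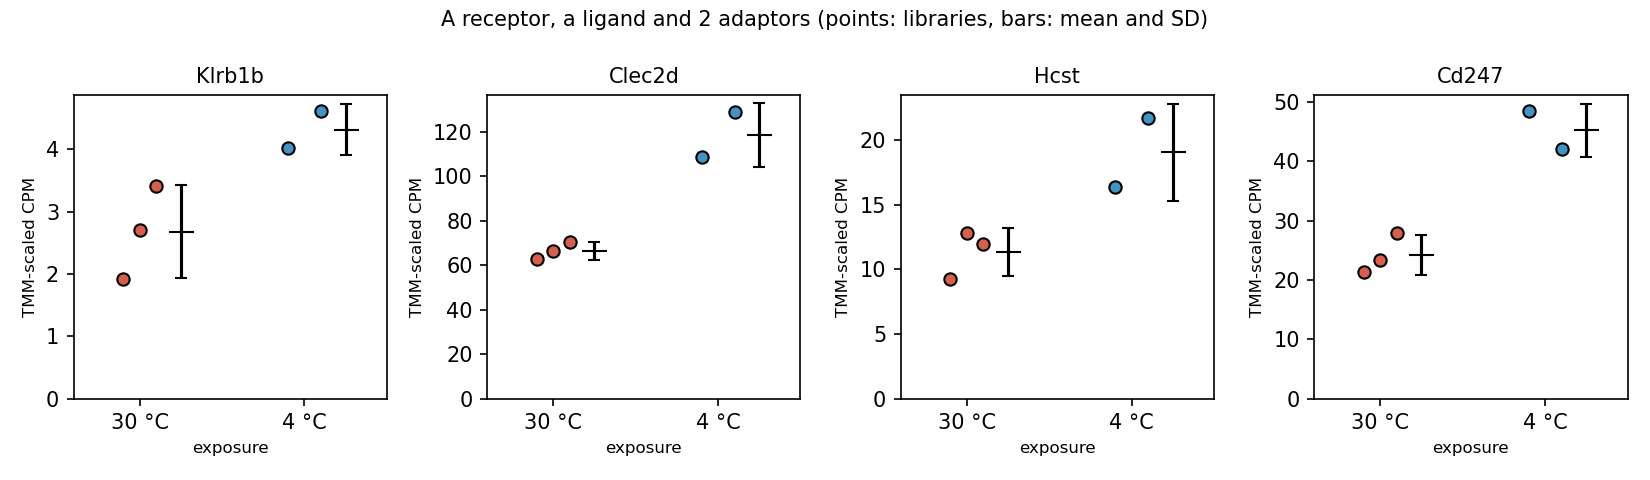
TMM-scaled CPM (vertical axes from 0) of the receptor gene Klrb1b, its ligand gene Clec2d and the adaptor genes Hcst and Cd247 in each library (points), with mean and SD (bars; n = 3 at 30 °C, n = 2 at 4 °C). Both 4 °C libraries lie above all 30 °C libraries in each panel, as for 12.2% of all genes tested, and no gene passed the adjusted threshold.

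Further down the pathway, 17 genes of activating signalling gave 0 calls and 3 unadjusted p under 0.05, all with higher values at 4 °C, beside 2.58% of all genes in that direction, and the median log2 fold change was 0.20. These were Sh2d1a, an adaptor of SLAM receptors (0.84), and the kinases Zap70 (0.75) and Lck (0.72). All 3 are also T cell genes, and the T cell markers, which summed to 264 to 418 at 30 °C and to 562 and 573 at 4 °C, were higher at 4 °C with them, and the part of T cells was not tested. Of 8 genes of inhibitory signalling, 0 passed and 1, Dgka, a diacylglycerol kinase, had an unadjusted p under 0.05 (0.53). Over all genes, 2.58% had such a p with higher values at 4 °C. The groups did not overlap for 3 of these 8, all higher at 4 °C, beside 12.2% of all genes tested. Csk, a kinase that restrains Src family kinases, stood at 0.42, and Ptpn6, the phosphatase SHP-1 recruited by the ITIM, at 0.29 (adjusted p = 0.831), with a median of 0.22 over the list.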

How the data were processed

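The authors deposited a table of raw counts per gene and library, made from the reads of 5 libraries labelled as tumour tissue, 3 at 30 °C and 2 at 4 °C. Their methods name featureCounts on the Gencode vM19 annotation, whereas the submitters' processing notes list GRCm38, fastp, HISAT and RSEM; strand and multi-mapped reads are not described in the sources used here. The values are whole numbers and were used as deposited. Of 54446 entries, 333 without a symbol (0.0101% to 0.0170% of counts) were left out; of 97 repeated symbols the entry with the highest mean carried the name. No column was left unused.

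Counts were filtered with filterByExpr, scaled by TMM and tested with the robust quasi-likelihood F-test of edgeR 4.0.16 (R 4.3.3), with all 5 libraries and no covariate. P-values were adjusted by Benjamini-Hochberg over 16133 genes, with calls at 0.05. The labels do not say whether libraries came from separate animals, whereas the paper calls them biological samples; p-values measure the spread between these libraries. The script was tested on simulated counts. Sequence and coordinates were taken from GENCODE M21; 30 of 30 members matched.

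The members and lists were chosen with earlier results of these data known, and the myeloid list was written after values were seen. Full values are given for members with a mean of at least 1 CPM, and for lower members that a result turns on; from each other list, up to 3 genes with the smallest p and the key genes are named. The lists were NK, T, plasmacytoid dendritic, myeloid, epithelial, acinar and spleen markers, adaptors, signalling genes, ligands, transcription factors and NK complex neighbours. Alternatives were DESeq2 1.42.0 (Wald test), scaling by RLE or by upper quartile, fitting without a filter, at least 10 counts in every library, removal of acinar genes, no robust estimation, the replicate number as a block and each library left out.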

Additional observations from a re-analysis of the deposited data

How the results depend on the processing

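No Klr gene with an adjusted p passed the threshold under the 13 alternatives (DESeq2 returned one for 7 of 24 members), and the adjusted p of single members ran from 0.391 to 1.00. The median log2 fold change stayed within 1 SD of the controls (0.53) throughout. The number of genes called over the whole table was 118 with DESeq2 (26 of them higher at 4 °C) and 44 with the replicate number as a block, in place of 0. The cause was not tested.

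The replicate numbers are shared between the groups, but nothing says that they pair the libraries, and deviations of same-numbered libraries correlated at -0.54 and -0.069 over 14184 genes. With the replicate block, 1 member, Klrd1, had an unadjusted p under 0.05 (log2 fold change 1.14), the family median was 0.48 with 21 positive genes, and the sign turned for Klrg2 (0.22), Klrg1 (0.26), Klrb1f (0.14), Klra8 (0.42), Klra14-ps (0.49), Klra9 (0.36) and Klra7 (0.30). Klrb1c turned to -0.0077 with DESeq2 and with RLE scaling, -0.0088 with at least 10 counts in every library and -0.00025 without acinar genes. Upper-quartile scaling turned Klra17 (0.043) and Klra8 (0.012).

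Leaving out each library in turn gave 0 to 1 members at an unadjusted p under 0.05 (Klrd1 without 30 °C replicate 3) and 8 to 20 positive genes. Without a library at 4 °C, the lone cold library is assumed to vary like the controls. The sign turned for 20 of 24 members without 1 library, over these ranges: Klrg2 -0.82 to 0.27, Klrg1 -0.49 to 0.21, Klrb1a -0.087 to 0.52, Klrb1c -0.29 to 0.43, Klrb1f -0.50 to 0.035, Klrk1 -0.23 to 0.46, Klrc2 -0.23 to 0.44, Klrc1 -0.0016 to 0.53, Klri1 -0.24 to 0.71, Klri2 -0.24 to 0.78, Klra17 -0.21 to 0.43, Klra4 -0.26 to 0.65, Klra8 -0.48 to 0.44, Klra14-ps -0.85 to 0.42, Klra9 -0.51 to 0.24, Klra7 -0.62 to 0.21, Klra13-ps -0.12 to 0.54, Klra3 -0.15 to 0.61, Klra1 -0.53 to 0.15 and Klra2 -0.43 to 0.13. Klrb1b, Klrd1, Klre1 and Klra6 kept their sign under every alternative in which they were tested, with ranges of 0.49 to 0.91, 0.39 to 1.12, 0.17 to 0.96 and 0.48 to 1.00 without 1 library. With 3 against 2 libraries, the 95% intervals of single members had lower bounds from -2.31 to -0.19 and upper bounds from 0.67 to 1.84, so differences inside these bounds were not excluded.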

Other observations

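Transcription factors of NK and T cells were not called either. Of 13 listed and tested, 10 had a positive log2 fold change, 0 passed the adjusted threshold of edgeR and 1 had an unadjusted p under 0.05, with higher values at 4 °C, beside 2.58% of all genes. That gene was Tcf7, which encodes TCF1 of naive and memory-like lymphocytes, at 77.6, 85.7 and 116 at 30 °C and at 170 and 148 at 4 °C (0.77, adjusted p = 0.689). Nfil3, needed for NK cell development, had a log2 fold change of -0.67 and was highest in 30 °C replicate 1 at 22.1. Gata3, a factor of T and innate lymphoid cells, had 0.36.

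Among 17 other genes in or next to the NK complex, 13 were tested. Of these, 3 had an unadjusted p under 0.05 (2 higher and 1 lower at 4 °C), beside 2.58% higher and 4.17% lower over all genes. Besides Clec2d they were Cd69, an early activation marker of lymphocytes, at 13.2, 11.7 and 16.9 against 29.2 and 22.6 (0.89, adjusted p = 0.689), and Olr1, a scavenger receptor, at 3.57, 4.85 and 1.62 against 0.845 and 1.44 (-1.54, adjusted p = 0.710). The 2 thus lay on opposite sides of 0 within the same complex.

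Among markers of other tissue, the spleen list had 4 genes higher and 1 lower at an unadjusted p under 0.05, beside 2.58% and 4.17% over all genes, and 0 past the adjusted threshold, with the smallest p for Cxcl13 (0.84), Madcam1 (0.94) and Tlx1 (0.75). All 33 tested genes of the acinar list had negative log2 fold changes (median -6.46), the smallest p belonging to Amy2a2, Prss3 and Cela1, and none had an unadjusted p under 0.05. The high level at 30 °C came from 1 library, as the list summed to 426101 in 30 °C replicate 2. The other controls were at 86.2 and 33.8, and the cold libraries at 22.5 and 2953. The 8 tested epithelial genes had a median of -0.85, with the smallest p for Cdh1, Cldn7 and Krt19. The 10 myeloid markers had a median of -0.96, led by Mpo, Itgam and S100a9, and the 6 plasmacytoid dendritic cell markers 0.33, led by Siglech, Cox6a2 and Pacsin1, with 0 under 0.05 unadjusted in each of these 3 lists.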
